A study of Mus musculus with 12 samples.

Results

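The pentose phosphate pathway was followed here through the genes of its 7 enzymes, G6pdx, Pgls, Pgd, Rpia, Rpe, Tkt and Taldo1, in mouse CD8+ T cells. The members were the rows of the gene count table whose symbol equals one of these names. No symbol was repeated, all 7 were found among the 13780 genes of the table, and all 7 were among the 13767 genes tested. RNA was sequenced from 12 libraries of CD8+ T cells, which were selected with magnetic beads from the spleens of wild type C57BL/6J mice aged 8 to 12 weeks. The naïve group (n = 4) was frozen directly after isolation and was neither cultured nor treated. The media group (n = 4) had been activated for 72 hours with beads carrying antibodies to CD3 and CD28 in plain culture media with 10 U/ml IL-2, and the lactate group (n = 4) had been activated in the same way with 40 mM sodium lactate added. The media group received no matching sodium salt, so lactate, sodium and osmolality cannot be told apart in these libraries. Naïve cells came from 4 donors and activated cells from 5. By the reading of the donor tags described below, 3 of the latter were the source of a library in each activated group. Media against naïve asks how the enzymes of the pathway changed with activation, and lactate against media asks how they differed when lactate was present during activation.

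The pathway branches from glycolysis at glucose 6-phosphate. Its oxidative branch oxidises that sugar to ribulose 5-phosphate and makes NADPH on the way, and its reversible non-oxidative branch exchanges pentose phosphates with glycolytic intermediates. T cells that start to divide draw on it for the ribose of nucleotides and for the NADPH that lipid synthesis and the reduction of glutathione and thioredoxin use up.

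Taldo1 was called in both media against naïve and lactate against media, in opposite directions. Both comparisons use the same 4 media libraries, so they are not independent, and a low media level alone pulls them in opposite directions. Of these 2 comparisons, Tkt, Pgls and Rpe were called in media against naïve alone and Pgd in lactate against media alone. Tkt, Pgls, Rpe and Pgd were also called in lactate against naïve. Whether the effects of a member differ between the comparisons was not tested. Of the members, Tkt rose most with activation, from 253 ± 19.3 CPM (SD, n = 4) in naïve cells to 872 ± 68.7 in media, and stood at 884 ± 24.1 with lactate. CPM here is the count of a gene per TMM-scaled library total. Pgd and Taldo1 were the members called higher with lactate than in media, by 1.61-fold and 1.76-fold. Genes were called where edgeR's quasi-likelihood test, with Benjamini-Hochberg adjustment over all tested genes, gave an adjusted p no higher than 0.01. By that rule 2 of the 7 members were higher with lactate than in media, where 13.9% of all tested genes were called higher, and 0 were lower, against 11.1% of all genes. The 2 genes are 28.6% of the members, and 25.1% of all genes were called in either direction. Taldo1 lost its call when media replicate 2 or lactate replicate 3 was left out.

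**Figure D1:**
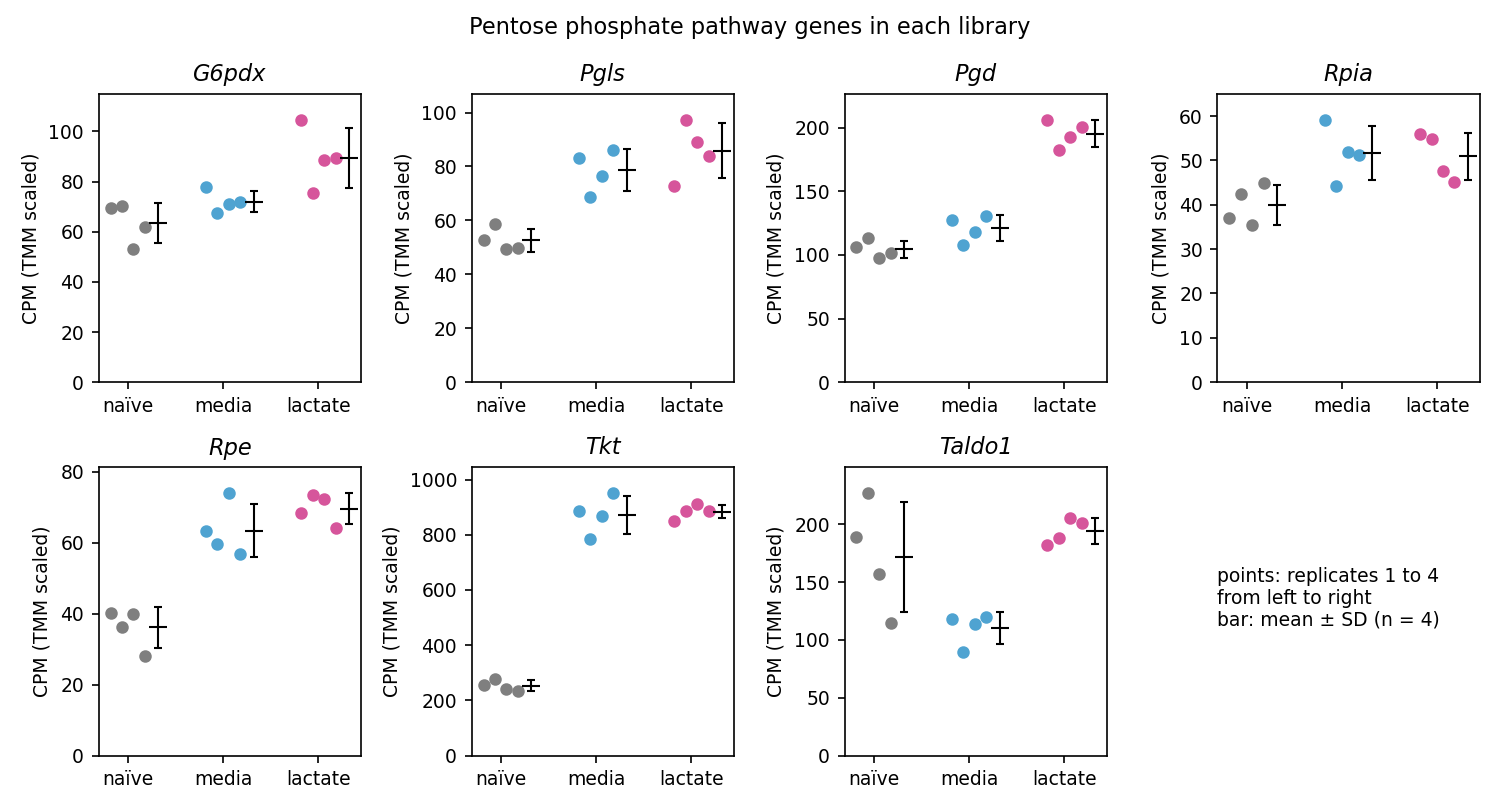
CPM, scaled by TMM, of each member in the 12 libraries, on axes that start at 0. Each point is a library, with replicates 1 to 4 from left to right in each group, and the bar beside them gives the mean ± SD (n = 4). Tkt is at least 783 CPM in all 8 activated libraries and at most 279 in the 4 naïve ones, Pgd and Taldo1 separate lactate from media, and the 4 naïve Taldo1 values spread from 115 to 227.

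The 300 bases around the RefSeq start sites are shown for the members that the comparisons turn on, which are Pgd and Taldo1, called between lactate and media, Tkt, with the largest change on activation, and G6pdx, whose enzyme controls entry to the pathway. The windows run from 250 bases before the start site to 50 after it, on the strand of the gene, and come from RefSeq on GRCm38.p6. They lie at chr4:149166656-149166955 on the minus strand for Pgd, chr7:141391910-141392209 on the plus strand for Taldo1, chr14:30548881-30549180 on the plus strand for Tkt and chrX:74428831-74429130 on the minus strand for G6pdx. Capitals mark the matches to 4 motifs, searched on both strands, which were CACGTG (the E-box), TGACNNNGC (the core of the antioxidant response element), ACGTG, which every E-box contains, and GGGCGG (the GC box).
Pgd: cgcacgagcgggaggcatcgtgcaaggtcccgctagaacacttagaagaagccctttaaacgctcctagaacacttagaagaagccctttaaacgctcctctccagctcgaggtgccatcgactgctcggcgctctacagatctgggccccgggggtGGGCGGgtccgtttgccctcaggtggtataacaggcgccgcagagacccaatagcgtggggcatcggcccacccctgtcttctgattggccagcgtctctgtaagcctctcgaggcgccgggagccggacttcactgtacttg
Taldo1: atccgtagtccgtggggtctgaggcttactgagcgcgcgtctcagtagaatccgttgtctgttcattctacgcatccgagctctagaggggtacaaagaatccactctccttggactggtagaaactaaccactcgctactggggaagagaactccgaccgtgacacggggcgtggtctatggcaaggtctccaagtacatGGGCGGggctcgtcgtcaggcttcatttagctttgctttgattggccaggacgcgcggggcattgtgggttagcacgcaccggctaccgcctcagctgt
Tkt: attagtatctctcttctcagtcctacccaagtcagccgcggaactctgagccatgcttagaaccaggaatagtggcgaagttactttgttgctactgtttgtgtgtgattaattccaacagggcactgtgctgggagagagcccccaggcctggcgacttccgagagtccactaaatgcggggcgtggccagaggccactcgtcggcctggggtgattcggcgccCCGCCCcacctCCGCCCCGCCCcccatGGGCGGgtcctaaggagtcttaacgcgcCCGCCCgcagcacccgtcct
G6pdx: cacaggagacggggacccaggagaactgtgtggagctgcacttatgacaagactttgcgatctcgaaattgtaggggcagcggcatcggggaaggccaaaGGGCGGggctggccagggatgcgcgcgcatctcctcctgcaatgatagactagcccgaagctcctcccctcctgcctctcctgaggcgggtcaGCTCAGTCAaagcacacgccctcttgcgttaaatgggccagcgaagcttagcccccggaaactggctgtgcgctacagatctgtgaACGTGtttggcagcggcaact
Every one of these windows held a GC box, which 35.7% of all 32841 mouse windows of this length hold. The Tkt window had 5 GC box matches, some of them overlapping, and those of Pgd and Taldo1 had 1 each, beginning 93 and 49 bases before the start. G6pdx alone of the 4 held the core of the antioxidant response element, beginning 57 bases before its start, and a copy of ACGTG after the start. Of all windows, 12.4% hold that core, 19.6% hold ACGTG and 7.15% hold the E-box, which was in none of the 4. A window at another RefSeq start of Pgd, at chr4:149166033-149166332, also held the core. These matches describe the letters of the windows only.

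G6pdx encodes the enzyme that catalyses the committed step of the oxidative branch and yields its first NADPH. The gene (ENSMUSG00000031400) lies at chrX:74409483-74429194 on the minus strand of GRCm38. It measured 69.5, 70.1, 53.1 and 61.8 CPM in naïve replicates 1 to 4, 77.7, 67.5, 71.0 and 71.7 CPM in media, and 105, 75.5, 88.4 and 89.3 CPM with lactate. Lactate replicate 2 was within the range of the media libraries and the other 3 were above it. The difference between lactate and media was 0.31 on the log2 scale (95% interval 0.06 to 0.57) and was not called (edgeR adjusted p = 0.0466). The lactate libraries were all above the naïve ones, and there G6pdx rose by 0.49 (SE 0.116, edgeR adjusted p = 0.00189), a call that was lost without lactate replicate 3 or 4 (edgeR adjusted p = 0.011 and 0.0117). The media value was 0.18 above the naïve one, with an interval from -0.07 to 0.43, and was not called. Of the exon bases of G6pdx, 13.6% also belong to Ikbkg on the opposite strand. Ikbkg stood at 81.9 ± 5.19 CPM in naïve cells, 60.9 ± 3.81 in media and 51.6 ± 3.76 with lactate (n = 4 each), against the order seen for G6pdx. The kit keeps strand but the strand setting of the counting was not stated, so reads over the shared bases are uncertain. G6pd2, a copy that matches 87.9% of the G6pdx transcript at 93.2% identity, is not among the rows analysed.

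Pgls encodes 6-phosphogluconolactonase, which hydrolyses the lactone made in the committed step. Its gene (ENSMUSG00000031807) is at chr8:71592176-71601092 on the plus strand. The naïve libraries had 52.7, 58.6, 49.3 and 49.7 CPM, the media libraries 83.1, 68.8, 76.6 and 86.3 CPM, and the lactate libraries 72.9, 97.3, 89.1 and 83.7 CPM. Every activated library was above every naïve one, and media and lactate overlapped. Pgls rose 1.5-fold from naïve to media (log2 0.58, SE 0.109, edgeR adjusted p = 0.000401) and 1.63-fold from naïve to lactate. Between lactate and media it differed by 0.12 with an interval from -0.11 to 0.36, which was not called. Fam129c on the same strand covers 20.6% of its exon bases and fell from 27.6 ± 10.9 CPM in naïve cells to 4.84 ± 0.379 in media and 2.01 ± 0.687 with lactate, so the share of reads counted for Pgls over those bases is uncertain.

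Pgd encodes 6-phosphogluconate dehydrogenase, which yields the second NADPH and releases ribulose 5-phosphate. Its gene (ENSMUSG00000028961) is at chr4:149149991-149166771 on the minus strand, and its exons overlap no other annotated gene. In naïve replicates 1 to 4 it measured 106, 113, 97.8 and 101 CPM, in media 127, 108, 118 and 131 CPM, and with lactate 206, 182, 192 and 200.2 CPM. The lowest lactate library was thus above the highest media library, while media and naïve overlapped. Pgd rose by 0.69 on the log2 scale with lactate against media (SE 0.086, 1.61-fold, 95% interval 1.42 to 1.84, edgeR adjusted p = 0.000129), with 87% of all tested genes below it when signed differences are ranked. The exact permutation test gave p = 0.0286, two-sided, which is the smallest that the 70 arrangements of 4 against 4 libraries can give, and was 1 of 21 such tests over 7 members and 3 comparisons. That test did not use the pairing of libraries by donor. All 3 donors with both libraries had more Pgd with lactate, by 0.69, 0.63 and 0.62 on the log2 scale. The call was kept in all 28 alternative settings with a test, with differences from 0.64 to 0.80. Against naïve cells Pgd was 1.87-fold higher with lactate (edgeR adjusted p = 1.13e-06), whereas media was 0.21 above naïve (interval 0.02 to 0.40, edgeR adjusted p = 0.0448) and not called. Correcting each library for the GC content and length of genes, an alternative added after seeing the data, moved that last value to 0.43 and past the threshold (edgeR adjusted p = 0.000638). The same correction moved the median over all tested genes in media against naïve from -0.03 to 0.10.

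The non-oxidative branch begins with the isomerase Rpia and the epimerase Rpe, which convert ribulose 5-phosphate to ribose 5-phosphate, the precursor of nucleotides, and to xylulose 5-phosphate. Rpia (ENSMUSG00000053604, chr6:70765720-70792232, minus strand) had 37.0, 42.5, 35.5 and 44.9 CPM in the naïve libraries, 59.2, 44.3, 51.8 and 51.3 CPM in media, and 56.0, 54.9, 47.7 and 45.1 CPM with lactate. These were the lowest levels per length among the members in all 3 groups. Naïve and media overlapped, by 1 library of each, and the lactate libraries were just above the naïve ones. None of its differences was called, with 0.37 for media against naïve (interval 0.11 to 0.63, edgeR adjusted p = 0.0141), 0.35 for lactate against naïve (edgeR adjusted p = 0.0172) and -0.02 for lactate against media (interval -0.28 to 0.24). Without naïve replicate 4, both differences from naïve cells were called (edgeR adjusted p = 0.00588 and 0.00702), and the difference between media and naïve was also called without media replicate 2 (0.00682). Leaving out naïve replicate 4 raised the calls over all genes from 7915 to 8469 in media and from 8944 to 9434 in lactate against naïve. Without media replicate 2, 7484 genes were called in media against naïve. Under the GC and length correction both differences from naïve cells were called as well, at 0.52 for media and 0.57 for lactate (edgeR adjusted p = 0.00263 and 0.00117). That correction also moved the median over all tested genes, from -0.03 to 0.10 for media and from 0.01 to 0.18 for lactate against naïve.

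Rpe (ENSMUSG00000026005, chr1:66700831-66719805, plus strand) measured 40.2, 36.3, 39.9 and 28.0 CPM in naïve cells, 63.3, 59.8, 73.9 and 56.7 CPM in media, and 68.3, 73.5, 72.4 and 64.0 CPM with lactate. Naïve replicate 4 was the lowest library and no activated library reached down to the naïve range. Rpe rose 1.76-fold from naïve to media (log2 0.81, SE 0.125, edgeR adjusted p = 8.64e-05) and 1.93-fold from naïve to lactate. Lactate and media differed by 0.13, with an interval from -0.14 to 0.40, and this was not called. Kansl1l on the opposite strand shares 17.9% of the exon bases of Rpe and was the lower gene in every group, at 18.6 ± 4.24 CPM in naïve cells, 14.8 ± 2.95 in media and 4.99 ± 0.8 with lactate.

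Tkt encodes transketolase, the thiamine-dependent enzyme that moves carbon units between sugar phosphates and links the pentoses back to glycolysis. The gene (ENSMUSG00000021957) is at chr14:30548359-30574720 on the plus strand. It measured 256, 279, 242 and 235 CPM in naïve replicates 1 to 4, 885, 783, 869.6 and 950.2 CPM in media, and 851, 887, 909.9 and 887 CPM with lactate. The 8 activated libraries were all over 2-fold above the naïve ones, and the lactate libraries lay inside the range of the media libraries. Tkt rose 3.45-fold from naïve to media (log2 1.79, SE 0.0879, 95% interval 3.02 to 3.93-fold, edgeR adjusted p = 7.9e-09), with 89.3% of all tested genes below it in signed rank, and 3.49-fold from naïve to lactate. Between lactate and media the difference was 0.02 on the log2 scale with an interval from -0.17 to 0.21, and its sign turned under 4 other scalings or tools. That interval leaves out a change of the size seen for Pgd or Taldo1.

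Taldo1 encodes transaldolase, the enzyme beside transketolase in the reversible carbon exchange. Its gene (ENSMUSG00000025503) is at chr7:141392199-141402968 on the plus strand and its exons overlap no other gene. Gm17823, which matches 67.8% of the Taldo1 transcript at 94.7% identity, is not among the rows analysed. It measured 189, 227, 157 and 115 CPM in naïve replicates 1 to 4, 118, 89.8, 114 and 119.8 CPM in media, and 182, 188, 205 and 201 CPM with lactate. The naïve libraries spread the most of any member in any group, with a coefficient of variation of 27.6%, and replicate 4 lay within the media range. The lactate libraries were all above the media libraries. Taldo1 rose by 0.81 on the log2 scale with lactate against media (SE 0.172, 1.76-fold, 95% interval 1.36 to 2.28, edgeR adjusted p = 0.00282, exact permutation p = 0.0286), with 90.2% of all tested genes below it in signed rank. Without media replicate 2, the lowest of its group, the difference was 0.73 (edgeR adjusted p = 0.0115), and without lactate replicate 3 it was 0.78 (edgeR adjusted p = 0.0104), neither of them called. The 3 donors with both libraries differed by 0.63, 0.72 and 0.75 on the log2 scale, all higher with lactate. The difference between the groups was 0.80 within the low run of library numbers (1 to 9) and 0.76 within the high run (16 to 26). The low run holds 2 lactate and 3 media libraries, and the high run 2 lactate libraries and only 1 media library. The labels do not name these runs as batches. Blocking by donor with each naïve library as its own donor kept the call (0.70, edgeR adjusted p = 0.000804), whereas the same block with the naïve libraries sharing a term, added after seeing the data, ended it (0.70, edgeR adjusted p = 0.0631). In both blocks the difference rests on the 3 donors with both libraries, and in the first the gene's own spread does as well.

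Against naïve cells Taldo1 was the member that moved down with activation, by a log2 difference of -0.64 in media (SE 0.172, 0.641-fold, edgeR adjusted p = 0.00515), although the groups overlapped and the exact permutation test gave p = 0.0857. The call was lost when the model held only these 2 groups (edgeR adjusted p = 0.0181) and without media replicate 1, 2 or 3 (edgeR adjusted p = 0.01001, 0.0179 and 0.0119). Within the high run of library numbers, which has 1 naïve and 1 media library, the difference was 0.06 in place of -0.83 within the low run. Lactate and naïve differed by 0.17 (interval -0.20 to 0.54), which was not called. The naïve libraries carried RNA of other cells. All 6 myeloid markers were detected in the naïve group, with summed levels of 1540, 1150, 502 and 476 CPM in replicates 1 to 4, and the 5 listed red cell markers summed to 956, 3500, 385 and 85.1 CPM. The 6 B cell markers summed to 969, 1380, 573 and 976 CPM. In the same 4 libraries Taldo1 stood at 189, 227, 157 and 115 CPM, so the 2 libraries with the most myeloid and red cell RNA also had the most Taldo1. The part of these cells in the naïve levels of Taldo1 and of the other members was not tested. Among the activated libraries the myeloid sum was at most 18.7 CPM in media and 10.9 CPM with lactate, the B cell sum at most 19.8 and 8.07 CPM, and the red cell sum at most 0.231 and 1.9 CPM. The 4 natural killer cell markers summed to 0.709 to 1.34 CPM in media and 2.1 to 5.59 CPM with lactate, and 2 of the 4 and 2 of the 5 red cell markers were at 0 in every media library. The 4 CD4+ T cell markers summed to 48 to 60.7 CPM in media and 83.7 to 96.6 CPM with lactate, of which Zbtb7b made up most and Cd4 itself stayed under 1 CPM on average in both groups. The 7 CD8+ T cell markers were present in every library and summed to 2230 CPM in naïve replicate 4, 3700 to 5020 CPM in the other naïve libraries, 3870 to 4630 CPM in media and 3470 to 4000 CPM with lactate. Of these 7, 3 were called lower with lactate than in media and 0 higher, or 42.9% beside 25.1% of all tested genes. They were Cd3d, Cd3e and Cd3g, subunits of the CD3 complex, with log2 differences of -0.74, -0.91 and -0.80. The other 4 were not called and went both ways, with Cd8a at -0.15, Cd247 at -0.38, Cd8b1 at 0.29 and Thy1 at 0.28. In bulk RNA, fewer cells of a type and less RNA per cell cannot be told apart.

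**Figure D2:**
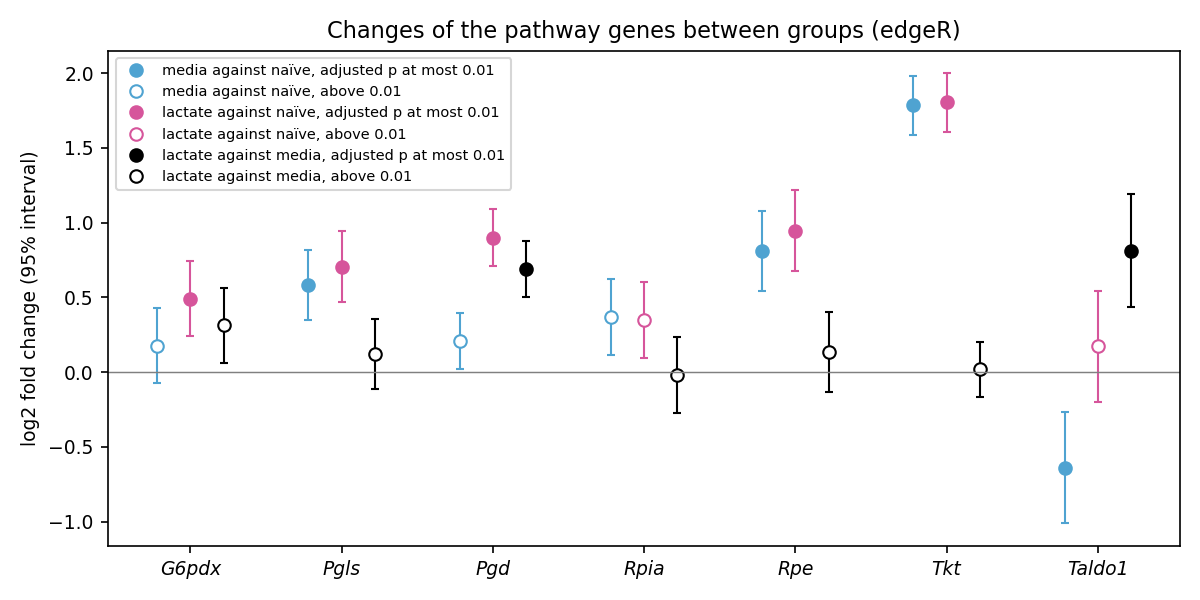
Log2 fold change of each member in 3 comparisons from edgeR, with 95% intervals as bars. Filled circles have an adjusted p of at most 0.01 and open circles are above it. Media and lactate lie together for Tkt at 1.79 and 1.81 above naïve, while the black circles for lactate against media are filled at 0.69 for Pgd and 0.81 for Taldo1 and open for the other 5 members.

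Counted over the pathway, 3 of the 7 members were called higher in media than in naïve cells (Pgls, Rpe and Tkt), where 28.5% of all tested genes were, and 1 was called lower (Taldo1), where 29% were. All called genes came to 57.5% in that comparison, and 4 of 7 members is 57.1%. Their median log2 difference was 0.37, against -0.03 over all tested genes. Against naïve cells 5 members were called higher with lactate (G6pdx, Pgls, Pgd, Rpe and Tkt), where 33% of all genes were, and 0 lower, where 32% were. That is 71.4% of the members, with 65% of all genes called in either direction, and the median member difference was 0.71 against 0.01 over all genes. These comparisons share the naïve libraries, those of lactate share the lactate libraries, and those of media share the media libraries. In lactate against media 6 of 7 differences were above 0, with a median of 0.13 against 0.00 over all genes, and the 4 members besides Pgd, Taldo1 and G6pdx lay between -0.02 and 0.13. Complete separation upward of the 4 libraries of a group from the 4 of the other was seen for 2 members in lactate against media (Pgd and Taldo1), where 23.2% of all genes separated so, for 3 in media against naïve (Pgls, Rpe and Tkt), with 30.7% of all genes, and for all but Taldo1 in lactate against naïve, with 35% of all genes.

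The make-up of the pathway differed between the groups. Per length, in TPM (counts scaled by the gene lengths in the table and by library), the 7 members summed to 624 ± 78.7 TPM in naïve cells, 909 ± 66.8 in media and 1020 ± 27.7 with lactate (SD, n = 4 each). Tkt made up 18.9 ± 1.68% of this sum in naïve cells, 45.2 ± 1.1% in media and 37.2 ± 0.532% with lactate. The share of Taldo1 was 42.6 ± 5.52% in naïve cells, 19.3 ± 1% in media and 27.6 ± 1.02% with lactate. The ranges of both shares were apart in the 3 groups, with Tkt at 44.1 to 46.4% in media and 36.5 to 37.8% with lactate. Shares of a sum are coupled, so that of Tkt also moves with the other members. Tkt itself stood at 872 CPM in media and 884 with lactate, a difference that was not called, and at 411 and 379 TPM. The 3 enzymes of the oxidative branch together held 28 ± 3.02%, 24 ± 0.645% and 25.4 ± 1.06% of the sum in naïve, media and lactate libraries.

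By TPM, Taldo1 was the highest member in naïve cells at 268.5, followed by Tkt at 117, G6pdx at 70.4, Pgd at 55.3, Pgls at 47.5, Rpe at 39.5 and Rpia at 25.5, and no neighbours in this order overlapped between libraries. In media Tkt came first at 411 TPM, Taldo1 next at 176, then G6pdx, Pgls, Rpe and Pgd between 81.1 and 65.0, each of which overlapped the next, and Rpia at 33.4. With lactate the order was Tkt at 379, Taldo1 at 281, Pgd at 95.6, G6pdx at 91.8, Pgls at 71.7, Rpe at 70.5 and Rpia at 30.1 TPM, and Pgd, G6pdx, Pgls and Rpe again overlapped in turn. With the longest transcript in place of the gene length, an alternative added after seeing the data, Pgd stood in place 3 in every group and Tkt, Taldo1 and Rpia kept their places. That alternative raised Tkt to 205 TPM in naïve cells, 704 in media and 652 with lactate, and the sum of the members to 787, 1250 and 1370 TPM. The share of Tkt then became 26.3, 56.5 and 47.7% and that of Taldo1 41.3, 16.9 and 24.7% in naïve, media and lactate libraries, and the ranges of each share stayed apart between the groups.

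Ratios of counts within a library do not depend on the scaling between libraries. The ratio of Taldo1 to Tkt was 0.74, 0.813, 0.649 and 0.489 in the naïve libraries, 0.115 to 0.133 in media and 0.211 to 0.227 with lactate, so no 2 groups overlapped. The ratio of Pgd to Tkt was 0.404 to 0.43 in naïve cells, 0.135 to 0.144 in media and 0.205 to 0.242 with lactate, also without overlap. Between the 2 NADPH-yielding enzymes, the ratio of Pgd to G6pdx was 1.66 ± 0.132 in naïve cells, 1.68 ± 0.0966 in media and 2.2 ± 0.182 with lactate. The lowest lactate library, at 1.97, was above the highest media library at 1.82.

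**Figure D3:**
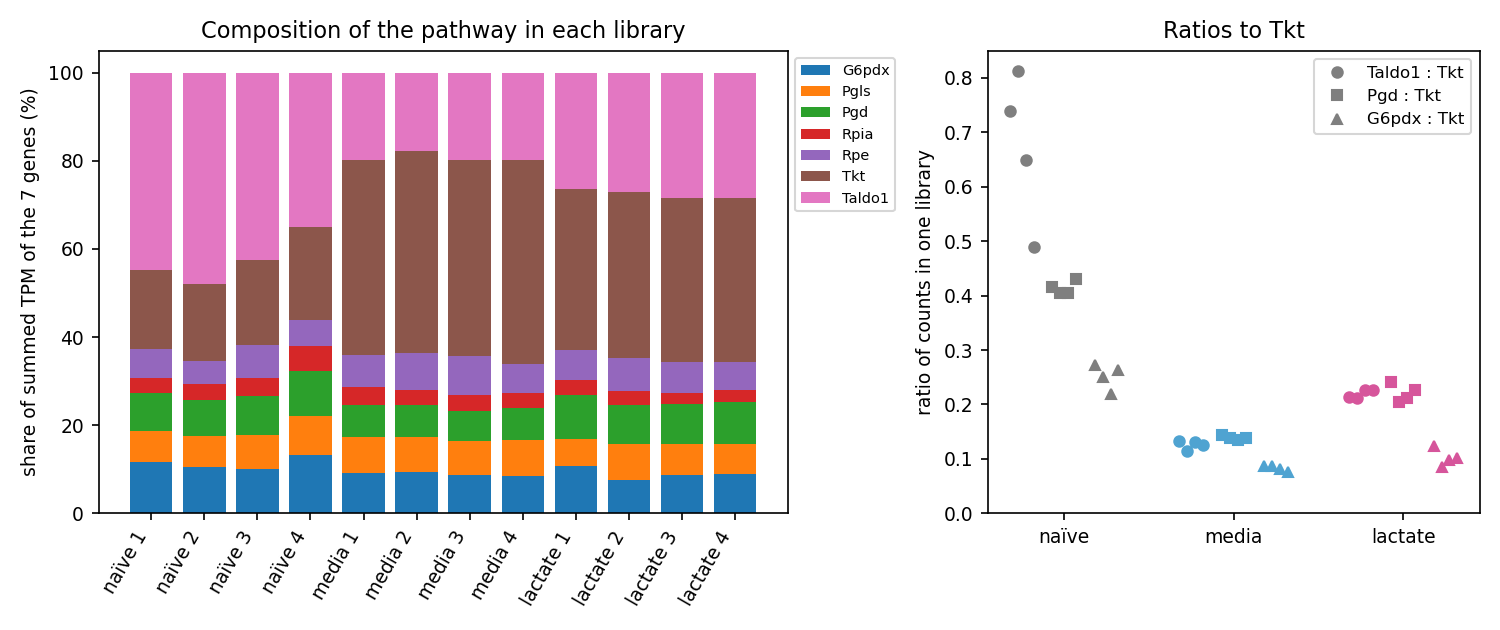
Left, the share of the summed TPM of the 7 genes that each member held in each of the 12 libraries. Right, the ratio of the counts of Taldo1, Pgd and G6pdx to those of Tkt in each library, on an axis from 0. Tkt holds 44.1 to 46.4% of the sum in media and 36.5 to 37.8% with lactate, and the Taldo1 to Tkt ratio lies at 0.115 to 0.133 in media, 0.211 to 0.227 with lactate and above both in naïve cells.

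The patterns of the members across the 12 libraries differed from one another. Likeness was measured as the root mean square difference of log2 CPM after each gene was centred on its own mean, over libraries that share donors and groups. The closest members were G6pdx with Rpia (0.207) and with Pgd (0.209), and the farthest were Tkt and Taldo1 (1.01). Of all tested genes, Sod2 and Nedd8 were nearest to Pgd (0.0697 and 0.0783), where the median gene was at 0.668. Sod2, the mitochondrial superoxide dismutase, measured 50.1 CPM in naïve cells, 57.5 in media and 97.4 with lactate. Pold1 and Hpf1 were nearest to Tkt (0.0841 and 0.0902). Pold1, the catalytic subunit of DNA polymerase delta, went from 74.8 CPM in naïve cells to 271 in media and 268 with lactate. Exosc5 and Ptp4a3 were nearest to Taldo1 but less close (0.153 and 0.155). For the other members the nearest genes were Trim35 and Ap2a2 for G6pdx (0.109 each), Ssna1 and Gpx4 for Pgls (0.0802 and 0.0869), Asf1a and Tmem39a for Rpia (0.0858 and 0.112), and Fkbp3 and Rpn2 for Rpe (0.0792 and 0.109).

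Of the genes around the pathway, those that feed it and use its products were counted by list in lactate against media. Among 12 tested neighbours in sugar phosphate metabolism and ribose use, 2 were called higher and 1 lower, which is 25% beside 25.1% of all tested genes. The count was 5 without naïve replicate 4, where 4830 of all 13767 tested genes were called in place of 3451. Tigar, a phosphatase of fructose 2,6-bisphosphate that turns sugar phosphates away from glycolysis, rose from 10.0 ± 2.46 CPM in media to 26.9 ± 6.25 with lactate (log2 1.42, SE 0.2, edgeR adjusted p = 0.000242). It was 18.8 CPM in naïve cells and had fallen by 0.91 on the log2 scale in media. Prps1, the synthetase that turns ribose 5-phosphate into PRPP for nucleotides, was 1.74-fold higher with lactate at 117 ± 8.17 against 67.3 ± 10.6 CPM (edgeR adjusted p = 0.00762), and lost this call when any 1 of the 8 activated libraries was left out (edgeR adjusted p up to 0.0282). Prpsap2, a protein associated with that synthetase, fell by 0.63.

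At the hexose phosphate branch point 1 of 9 tested genes was called higher and 1 lower, or 22.2% beside the 25.1% of all genes. The count was 5 with DESeq2, 4 without naïve replicate 4 and 1 in each of the 5 leave-outs that end the call of G6pc3, given with that gene. Of all 13767 tested genes, 4551, 4830 and 2260 to 2672 were called in those settings, against 3451 in the main fit. Over 29 alternatives the count of branch point genes ran from 1 to 5. Gpi1, the isomerase that takes glucose 6-phosphate into glycolysis, fell from 1946 ± 74.1 CPM in media to 1264 ± 175 with lactate (log2 -0.62, edgeR adjusted p = 0.000663), after a rise of 2.43 from naïve to media. G6pc3, a glucose 6-phosphatase, rose by 0.49 (edgeR adjusted p = 0.0039), and this call was lost when media replicate 2 or 3, or lactate replicate 1, 3 or 4, was left out (edgeR adjusted p = 0.0112 to 0.0139).

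Of 10 tested genes listed under other sources of NADPH, 2 were called higher with lactate and 0 lower, 20% beside 25.1% of all genes. Which cofactor their enzymes used in these cells was not measured. These were Mthfd1, a folate enzyme of the cytosol, at 175.5 ± 39.9 against 77.4 ± 22.7 CPM (log2 1.18, edgeR adjusted p = 0.00151), and its mitochondrial relative Mthfd2, at 388 ± 25.6 against 223 ± 44.6 CPM (log2 0.80, edgeR adjusted p = 0.00102). Among 14 tested users of NADPH, 3 were called higher and 0 lower, 21.4% beside the same 25.1%. Txnrd1, the cytosolic thioredoxin reductase, rose 2.12-fold from 98.0 ± 18.7 to 208 ± 42.1 CPM (edgeR adjusted p = 0.000345). Gsr, the glutathione reductase, rose 1.74-fold (edgeR adjusted p = 0.00293, and 0.0124, 0.0107 and 0.0108 without media replicate 2, media replicate 4 or lactate replicate 1). Akr1b3, an aldose reductase, rose by 0.68 on the log2 scale.

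Of 13 tested regulators of the pathway 1 was called, or 7.69% beside 25.1% of all genes. It was Trp53, which encodes p53 and rose by 0.49 with lactate (edgeR adjusted p = 0.00216), and under the GC and length correction it stood at 0.46 and was not called (edgeR adjusted p = 0.0108). The count of regulators was 2 with DESeq2, with limma voom and without media replicate 4, 4 without naïve replicate 4 and 0 with the GC and length correction, and it ran from 0 to 4 over the 29 alternatives. All genes called in these 5 settings came to 4551, 3485, 3068, 4830 and 3078 in that order, against 3451 in the main fit. Nfe2l2, which encodes the factor that binds the antioxidant response element, measured 38.2 ± 4.79 CPM in media and 39.7 ± 6.7 with lactate, a difference of 0.05 (interval -0.22 to 0.33) that was not called. Myc measured 362 ± 141 CPM in media and 613 ± 35.0 with lactate, a log2 difference of 0.76 that was not called (edgeR adjusted p = 0.0293). Its difference was 1.05 within the low run of library numbers and 0.137 within the high run, which has 1 media library. The median log2 differences between lactate and media were 0.03 for the neighbours, -0.20 for the branch point, 0.16 for the NADPH sources, 0.19 for the NADPH users and 0.17 for the regulators, with 0.13 for the members and 0.00 for all tested genes.

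**Figure D4:**
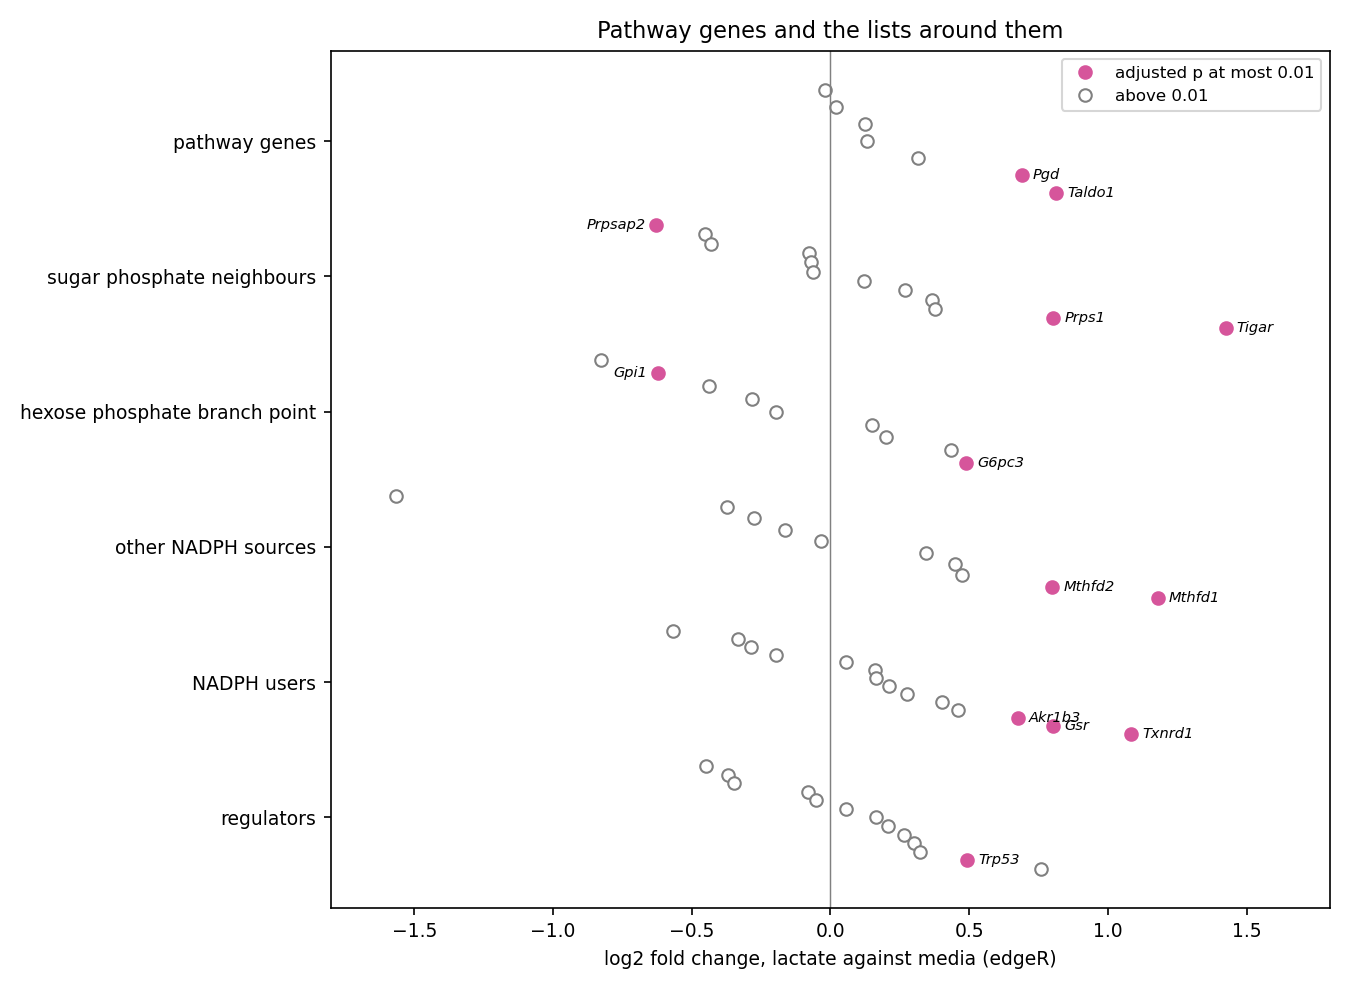
Log2 fold change of lactate against media from edgeR for the 7 members and for the genes of 5 lists around the pathway, 1 point a gene. Filled points have an adjusted p of at most 0.01 and are named, and open points are above it. In each list most points are open, Tigar is farthest to the right among the filled points at 1.42, and Prpsap2 and Gpi1 are the filled points to the left of 0.

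In media against naïve, where 57.5% of all tested genes were called, 7 of 9 branch point genes were called higher and 1 lower (88.9%), with a median log2 difference of 2.24. The neighbours had 3 called higher and 4 lower (58.3%), the NADPH users 5 and 2 (50%) and the regulators 4 and 4 (61.5%), while the NADPH sources had 3 and 0 (30%). The medians of these lists were -0.10, -0.04, 0.07 and 0.20 in that order, with 0.37 for the members. In lactate against naïve, where 65% of all genes were called, the counts called higher and lower were 4 and 3 for the neighbours (58.3%), 7 and 1 for the branch point (88.9%), 4 and 0 for the NADPH sources (40%), 6 and 2 for the NADPH users (57.1%) and 5 and 3 for the regulators (61.5%). The members' median of 0.37 on activation rests on unequal values, from -0.64 for Taldo1 to 1.79 for Tkt.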

How the data were processed

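RNA was sequenced from 12 libraries in 3 groups of 4 (naïve, media, lactate), grouped by the sample labels. The authors demultiplexed reads with bcl2fastq 2.20.0.422, mapped them to mm10/GRCm38 and removed PCR duplicates with STAR 2.7.5b, and counted unique reads in Ensembl exons with featureCounts. The deposited values are raw counts per gene with gene lengths. Totals were 16439750 to 18601223 counts in naïve, 15842423 to 20922872 in media and 14726904 to 21478137 in lactate libraries. The members and gene lists were chosen with earlier results of these data known.

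Genes with at least 1 CPM in 3 libraries were kept, which dropped 13. All 12 libraries were fitted with edgeR 4.0.16 (R 4.3.3) with TMM scaling and a quasi-likelihood test, at an adjusted p of 0.01, and the standard error is the log2 fold change divided by the root of F. The biological coefficient of variation was 23.5%. The fit was tested on simulated data with fewer changed genes than were called here, where most of the changes put in were not called. A difference that was not called is therefore not shown to be absent. Exact permutation tests used all 70 arrangements. Neither these tests nor the main fit held a term for the donor, so libraries that share a donor were treated as independent. TPM used the lengths in the table. Coordinates came from GENCODE M21 on GRCm38, where 13771 of 13780 identifiers were found, and the lists' genes without a row in the table were not used here. One gene of the list of NADPH users is not reported here and was left out of its counts. Named genes were all members, the listed genes called in lactate against media, Nfe2l2 and Myc, which were chosen after their values were seen, and the 2 genes most like each member.

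Donor tags in the labels recur between the low library numbers (1 to 9) and the high ones (16 to 26). They were read as restarting there, which the labels do not state. This reading gives 5 donors of activated cells and pairs 3 media and lactate libraries. Deviations from the group means correlated at 0.374, 0.211 and 0.553 in these pairs. The numbers in the titles do not all follow donors. Media 2 with lactate 2 and media 3 with lactate 3, which are not donor pairs, correlated at 0.297 and 0.0038. Alternatives were other scalings and tools (DESeq2 1.42.0, limma 3.58.1 voom), filters, thinning, blocks for donor or library run, a GC correction and leaving out each library. Library run means the split into low and high library numbers, which was assumed here and is not recorded in the labels as a batch.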

Additional observations from a re-analysis of the deposited data

How the results depend on the processing

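The count of members called higher with lactate than in media was 2 or more in 26 of 29 alternatives, and was 3 at a threshold of 0.05, where G6pdx joined Pgd and Taldo1. At that threshold 5461 of all 13767 tested genes were called, against 3451 at 0.01. Leaving out 1 library gave 1 to 2 members called higher. Only Pgd was called without media replicate 2 or lactate replicate 3, where 2260 and 2316 genes were called in all. With a replicate block by donor, in which each naïve library was its own donor, the count was 2, with Pgd at 0.65 (edgeR adjusted p = 0.00101) and Taldo1 at 0.70 (edgeR adjusted p = 0.000804), and no call of a member changed. These values rest on the 3 donors with both libraries alone. A block by donor with the naïve libraries sharing a term, added after seeing the data so that their spread stayed in the fit, gave 1, with Taldo1 at edgeR adjusted p = 0.0631 and 992 genes called in all. Of the listed genes called in lactate against media, only Tigar, Gpi1 and Txnrd1 passed in that fit. A block by title number gave 2 members.

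The members called ranged from 3 to 6 in media against naïve and from 4 to 6 in lactate against naïve over 25 alternatives each. The highest of these came with the threshold of 0.05 and with the GC and length correction in both, and also without naïve replicate 4 in lactate against naïve. For media against naïve, all genes called there came to 9387 and 7938, against 7915 in the main fit. For lactate against naïve they came to 10266, 8910 and 9434, against 8944. G6pdx lost its call in lactate against naïve with only these 2 groups in the model (edgeR adjusted p = 0.0109).

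Signs turned for values that had not been called, and the cause was not tested. For Tkt in lactate against media these were -0.0142 with DESeq2 and with its size factors in edgeR, -0.00629 with upper quartile scaling, -0.0232 with total counts, -0.0419 under both blocks by donor and -0.0285 without media replicate 2, with -0.0285 to 0.0579 as the range when 1 library was left out. Rpia went from -0.02 to 0.00399 after thinning, 0.0521 with the GC and length correction and 0.00109 with that correction and the replicate block, and between -0.0874 and 0.0517 when 1 library was left out, above 0 without media replicate 1 or lactate replicate 3 or 4. Pgls turned to -0.0223 under the GC and length correction with the replicate block. The called value of Taldo1 in media against naïve turned to 0.0582 within the high library run, where 1 library of each group stands. The correction for GC and length also ended the calls of Prps1, at 0.74 in place of 0.80, and Trp53, at 0.46 in place of 0.49 (edgeR adjusted p = 0.0305 and 0.0108).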
